A study of Homo sapiens with 9 samples.

Results

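The genes described here are the human histone genes and SLBP, the gene of the protein that binds the end of replication-dependent histone mRNA. The members were chosen by gene symbol: every symbol of the form HIST1H to HIST4H, 10 histone variant genes and SLBP, which gave 84 of the 26475 genes in the table. Of these, 73 belong to the histone gene clusters (6 of type H1, 18 of H2A, 20 of H2B, 14 of H3 and 15 of H4). The variants are H1F0 and H1FX of type H1, H2AFX, H2AFZ, H2AFV, H2AFY, H2AFY2 and H2AFJ of type H2A, and H3F3A and H3F3B of type H3. No measured value enters this choice, but it was made with earlier results of these libraries known, so counts over the members are descriptions. RNA was measured in hTERT_RPE1, a retinal pigment epithelial line immortalised with telomerase, in 9 libraries made 24 h after seeding. Control cells carried the empty pLKO_1 vector on fibronectin-coated glass. sh_PIP4K2B cells carried an shRNA against the lipid kinase PIP4K2B on the same glass, with a different hairpin (#1, #2 and #3) in each library. Soft cells carried the empty vector on fibronectin-coated gels of 2.3 kPa. For Control and Soft the titles and the treatment labels disagree, the first naming an empty vector and the second a control hairpin. The titles write this vector as pLKO_1, pLKO_2 and pLKO_3 in replicates 1, 2 and 3, alike in Control and Soft.

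Cells package new DNA during S phase with histones made from clustered genes, which have no introns. The mRNAs of these genes normally end just past a short RNA stem-loop and carry no poly(A) tail. SLBP binds this stem-loop and acts in the cleavage, export, translation and decay of the mRNA. Variant histones, such as H2A.Z, H3.3 and macroH2A, are made throughout the cell cycle from separate genes with ordinary polyadenylated mRNAs, and replace the standard histones at particular sites in chromatin. Some clustered genes are also known to give longer polyadenylated mRNAs, above all in cells that leave the cell cycle. The libraries were made with a kit that captures poly(A) RNA, so mRNA without a tail is under-represented in them.

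The stem-loop is shown for 6 genes because it is shared by members that were measured and members that were not. The 150 bases after the last amino acid codon, stop codon included, were searched. The search was for a stem of 6 base pairs and a loop of 4 bases, with at most 1 mismatched pair. The 5′ arm of the stem had to begin with GG and end with T, and the loop to begin with TT. It found a match in 67 of the 73 clustered genes, and in 92 of 19701 protein-coding canonical transcripts (0.467%). For the members any coding transcript of the gene counted. In the clustered genes the stem-loop began 25 to 70 nt after the last amino acid codon. Of the variants only H2AFX had a match. The sequences below are from GRCh38, written as DNA 5′ to 3′ on the gene's strand, and the capitals mark the 16 bases of the stem-loop. They lie at chr6:27146361-27146386 (HIST1H2BK, minus strand), chr6:27132316-27132341 (HIST1H2BJ, minus), chr6:26055740-26055764 (HIST1H1C, minus), chr6:27866792-27866817 (HIST1H1B, minus), chr6:26285126-26285151 (HIST1H4H, minus) and chr11:119094893-119094918 (H2AFX, minus).
HIST1H2BK: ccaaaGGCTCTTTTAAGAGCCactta
HIST1H2BJ: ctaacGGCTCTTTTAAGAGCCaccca
HIST1H1C: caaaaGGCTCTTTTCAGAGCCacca
HIST1H1B: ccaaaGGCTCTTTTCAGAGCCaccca
HIST1H4H: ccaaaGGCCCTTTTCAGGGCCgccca
H2AFX: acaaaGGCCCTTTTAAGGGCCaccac
HIST1H1C and HIST1H1B, both linker histone genes, had the same 16 bases, yet HIST1H1B had 9 counts over the 9 libraries and was not tested while HIST1H1C was the most abundant clustered H1 gene. The commonest form, that of HIST1H1C, occurred in 40 clustered genes, of which 11 were tested. The form of HIST1H2BK and HIST1H2BJ occurred in 10, of which 4 were tested. H4 genes had a separate pair of forms, that of HIST1H4H in 10 and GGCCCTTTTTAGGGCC in 4.

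Most clustered genes were at or near the detection limit. Of the 73, 13 had no count in any library and 52 in all had too few counts to be tested. The highest count of any untested member in 1 library was 22 (HIST1H3H), and the median of these highest counts was 2. The floor used here, 3 counts, equals 0.131 to 0.148 CPM (counts scaled to library size, after TMM normalisation) at totals of 19217346 to 24020799 counts per library. The 21 tested clustered genes were 1 of type H1, 6 of H2A, 8 of H2B, 3 of H3 and 3 of H4. All 10 variants and SLBP were tested. A stem-loop was present in 19 of the 21 tested and in 48 of the 52 untested clustered genes. By annotation the genes divided otherwise, given with no test: of 17 clustered genes with a stem-loop and a transcript in GENCODE v44 or RefSeq that continues at least 100 nt past it, 12 were tested, against 7 of the 50 without one. H2AFX, the DNA damage variant H2A.X, had both a stem-loop and an annotated transcript of 1024 nt beyond it.

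Per kb of canonical transcript, the tested members spanned a wide range in Control. H2AFZ, which encodes H2A.Z, was first with 244 CPM per kb and HIST1H2BK, an H2B gene, second with 166. H3F3B, an H3.3 gene, had 98.4, H2AFX 94.2, H2AFY (macroH2A1) 83.2, SLBP 46.9 and H1FX (linker histone H1.10) 46.6. HIST1H1C followed with 32.3 CPM per kb and HIST1H2AC, an H2A gene, with 19.1. No tested clustered H3 or H4 gene exceeded 3.03 CPM per kb, the level of HIST1H4H. The canonical transcripts of clustered genes are the short stem-loop forms, apart from the 2224 nt of HIST2H2BE, so levels per kb are too high where the reads came from longer RNA.

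On soft gels the clustered genes were lower than on glass. Their summed level was 177, 172 and 165 CPM in Control 1, 2 and 3 and 67.5, 64.5 and 61.7 CPM in the Soft libraries, so the groups lay apart. The Soft mean was 0.376 of the Control mean. The share of reads was uneven among members, and HIST1H2BK alone gave 47.3% of the clustered sum. Of the 21 tested clustered genes 18 were lower and 3 higher in Soft, with a median log2 fold change of -1.27, against 0.01 over all 13784 genes tested. Past an adjusted p of 0.01, 6 were lower, against 14.8% of all tested genes, and 0 were higher, against 15.8% of all tested genes. At an unadjusted p below 0.05 the counts were 9 lower and 0 higher, and with DESeq2 at an adjusted p below 0.01 they were 8 and 0. In 11 of the 21 all Soft libraries lay below all Control libraries, against 39.1% of all tested genes, and in 1 (HIST3H2A) all lay above, against 40.4%.

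Among H2B genes HIST1H2BK was at 83.1, 83.4 and 80.2 CPM in Control and at 24.9, 22.5 and 22.3 CPM in Soft. The groups did not overlap. Soft was 3.54-fold lower (log2 fold change -1.82, SE 0.18, adjusted p = 7.76e-05, edgeR). This call held in each of the 19 fits run. Of the 75-mers (runs of 75 bases) of its canonical transcript 39.0% occur in other genes too. HIST1H2BC was at 4.14, 3.77 and 3.85 CPM in Control and at 0.866, 1.09 and 1.03 CPM in Soft (log2 fold change -1.97, SE 0.35, adjusted p = 0.00171, edgeR). HIST1H2BJ was at 1.40, 1.76 and 1.22 CPM in Control and at 0.638, 0.333 and 0.179 CPM in Soft (-1.91, SE 0.45, adjusted p = 0.00705, edgeR). Both groups of each gene lay apart. The other 5 tested H2B genes were lower too, with log2 fold changes from -1.52 (HIST2H2BF) to -0.70 (HIST2H2BC, a transcribed pseudogene), and none passed the threshold. HIST2H2BE, for instance, was at 18.0, 15.1 and 16.5 CPM in Control and at 8.53, 8.00 and 8.22 CPM in Soft, with an adjusted p of 0.0314 (edgeR). Other genes hold 59.3% of the 75-mers of HIST2H2BF and 100% of those of HIST2H2BC.

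The linker histone gene HIST1H1C was at 25.2, 22.6 and 23.1 CPM in Control and at 8.80, 10.6 and 7.96 CPM in Soft. Every Soft library lay below every Control library (log2 fold change -1.37, SE 0.31, adjusted p = 0.00575, edgeR). Among H3 genes HIST1H3D was at 1.12, 1.58 and 0.830 CPM in Control and at 0.274, 0.191 and 0 CPM in Soft (-2.89, SE 0.59, adjusted p = 0.00333, edgeR). Its transcript shares 96.3% of its 75-mers with an overlapping gene. HIST1H4H, an H4 gene, was at 1.44, 1.14 and 1.14 CPM in Control and at 0.456, 0.524 and 0.402 CPM in Soft (-1.42, SE 0.30, adjusted p = 0.00436, edgeR). No H2A gene passed, although HIST1H2AC, at 9.83, 10.1 and 9.79 CPM in Control and 4.47, 3.19 and 4.6 CPM in Soft, came near it (-1.27, SE 0.33, adjusted p = 0.0113, edgeR). HIST3H2A, an H2A gene of the cluster at 1q42, went the other way: 1.68, 1.45 and 1.79 CPM in Control and 2.42, 2.67 and 1.97 CPM in Soft, without passing (0.52, SE 0.24, adjusted p = 0.102, edgeR).

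Several members are near-identical copies between which reads cannot be told apart. HIST2H2AA3 and HIST2H2AA4 share at least 99.8% of their 75-mers with other genes, and each swung between 0 and several CPM among replicates of Soft. Summed, a step chosen after seeing the data, the pair was at 17.3, 18.5 and 14.9 CPM in Control and at 6.98, 6.95 and 6.39 CPM in Soft (log2 fold change -1.32, SE 0.32, adjusted p = 0.00868, edgeR). HIST2H4A and HIST2H4B summed were at 1.40, 1.10 and 1.09 CPM in Control and at 0.912, 1.00 and 0.939 CPM in Soft, which did not pass (-0.33, SE 0.33, adjusted p = 0.446, edgeR).

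The call in Soft depended on the libraries used. Without Control replicate 1, 2 or 3 the number of clustered genes lower in Soft was 2, 2 and 3 in place of 6, and without Soft replicate 1, 2 or 3 it was 3, 2 and 4. The 4 include HIST2H2AA4 (log2 fold change -10.4, adjusted p = 0.00183, edgeR). It was at 0 CPM in Soft 1 and 2, where its near-identical copy HIST2H2AA3 held the counts. Leaving out hairpin #3 made it 10, and a fit of the 6 Soft and Control libraries alone also gave 10.

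**Figure D1:**
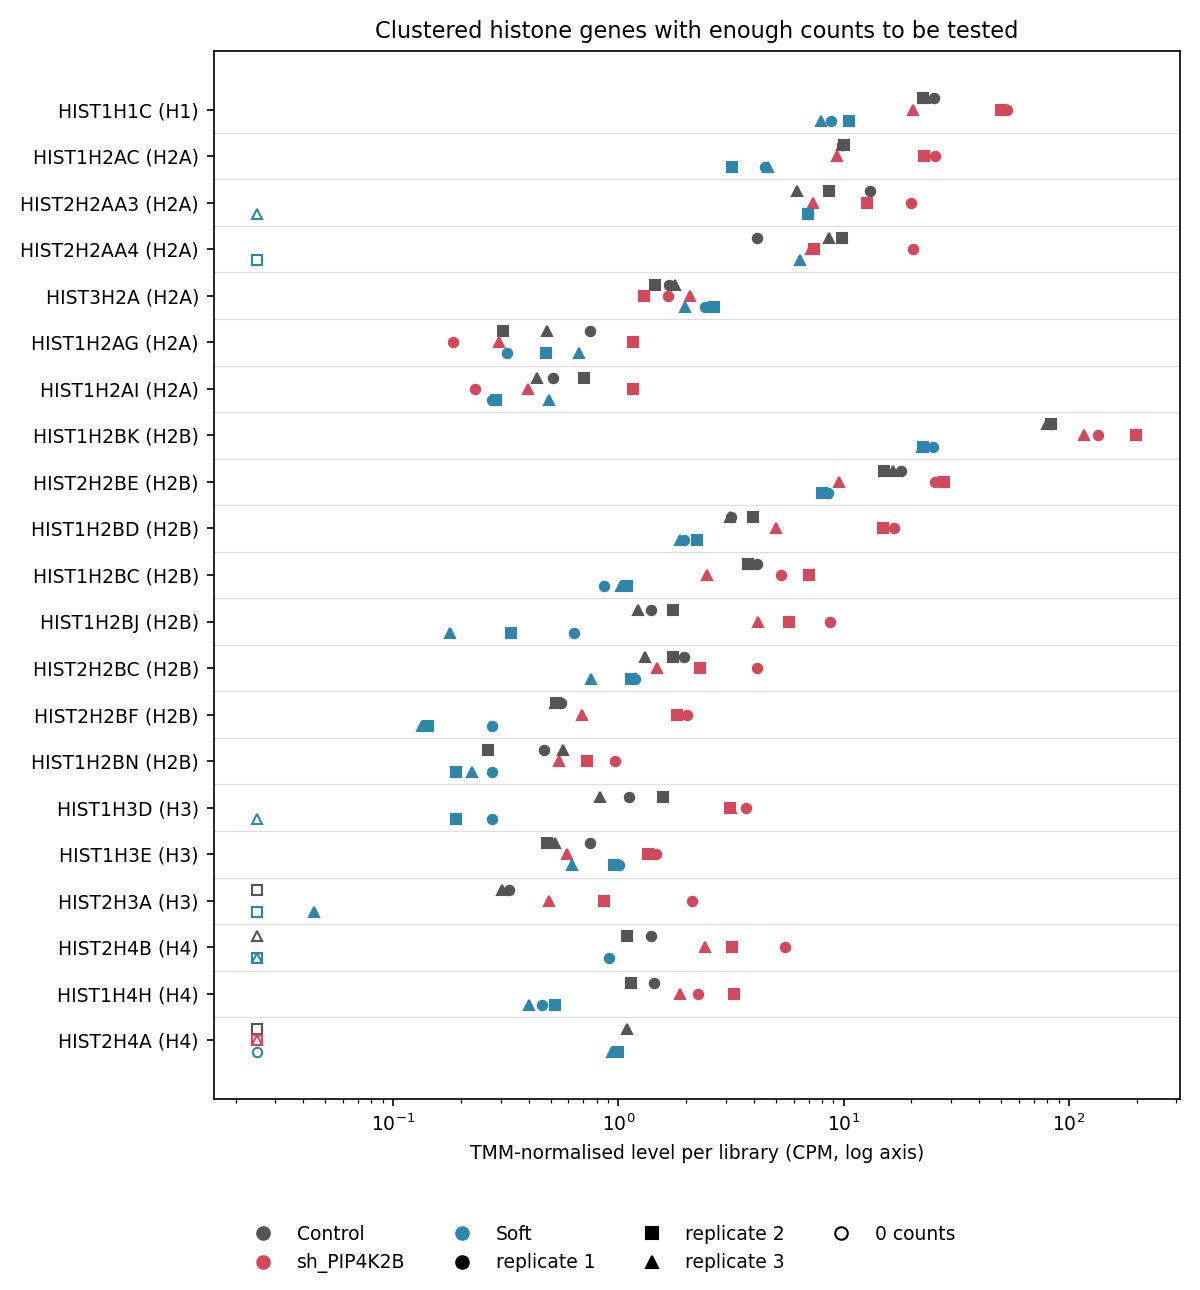
TMM-normalised level in CPM (log axis) of the 21 tested clustered histone genes in each library, ordered by histone type and mean level, with colours for the conditions and shapes for the replicates. Open symbols at the left edge stand for 0 counts. Soft libraries lie left of Control for most genes, HIST1H2BK between 22.3 and 24.9 CPM against 80.2 to 83.4, while hairpins #1 and #2 lie to the right more often than hairpin #3.

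With PIP4K2B hairpins the clustered genes were higher than in Control, unevenly so between hairpins. Their summed level was 339, 371 and 199 CPM with hairpins #1, #2 and #3, which is 1.98, 2.16 and 1.16 times the Control mean. Of the 21 tested genes 20 were higher, with a median log2 fold change of 0.80, against 0.05 over all tested genes. The gene that was lower, HIST2H4A, was at 0 in all hairpin libraries, where its near-identical copy HIST2H4B held the counts. A single one, HIST1H2BJ, passed the threshold, against 2.76% of all tested genes, and 0 were lower, against 2.77%. At an unadjusted p below 0.05, 10 were higher and 0 lower, and DESeq2 called 4 higher and 0 lower. In 8 of the 21 all hairpin libraries lay above all Control libraries, against 17.4% of all tested genes, and in 0 all lay below, against 16.7%. Taken singly, hairpin #1 lay above all Control libraries in 17 of 21 (44.6% of all tested genes), hairpin #2 in 17 (43.0%) and hairpin #3 in 9 (43.9%). The median log2 ratio of the clustered genes to the Control mean was 1.24, 1.19 and 0.18 with hairpins #1, #2 and #3. Each hairpin is 1 library, so differences between hairpins have no replicates.

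HIST1H2BJ stood at 8.66, 5.73 and 4.15 CPM under hairpins #1, #2 and #3, against 1.22 to 1.76 CPM in Control (log2 fold change 2.08, SE 0.37, adjusted p = 0.00684, edgeR), a fitted difference of 4.23-fold, and every hairpin lay above Control. It lost the call without any 1 of the Control libraries (adjusted p = 0.0422, 0.0315 and 0.0404 without Control 1, 2 and 3), without Soft 2 (0.0168) or Soft 3 (0.0101), and with the Soft libraries left out altogether (0.0214). HIST1H2BK was at 135, 198 and 117 CPM with the hairpins, all above its 80.2 to 83.4 CPM in Control, and missed the threshold (0.87, SE 0.18, adjusted p = 0.0114, edgeR). HIST1H2BD was at 16.7, 15.0 and 4.99 CPM against 3.15 to 3.95 CPM (1.84, SE 0.38, adjusted p = 0.0126, edgeR). These genes of type H2B were above Control with every hairpin.

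A different pattern held for HIST1H1C, at 53.0, 49.8 and 20.4 CPM under hairpins #1, #2 and #3, against 22.6 to 25.2 CPM in Control. Hairpins #1 and #2 lay above all Control libraries and hairpin #3 below them, and the group did not pass (0.80, SE 0.30, adjusted p = 0.0981, edgeR). HIST1H2AC was at 25.3, 22.6 and 9.39 CPM against 9.79 to 10.1 CPM (0.95, SE 0.31, adjusted p = 0.0664, edgeR), with hairpin #3 again below Control. HIST2H2BE was at 25.6, 27.9 and 9.49 CPM against 15.1 to 18.0 CPM (0.34, SE 0.32, adjusted p = 0.488, edgeR). HIST1H2BC was at 5.30, 6.98 and 2.47 CPM against 3.77 to 4.14 CPM (0.33, SE 0.32, adjusted p = 0.509, edgeR). In each of these 4 genes hairpins #1 and #2 lay above all Control libraries and hairpin #3 below them. Without hairpin #3, 7 clustered genes were called higher in place of 1, among them HIST1H1C (1.12, adjusted p = 8.61e-04, edgeR) and HIST1H2AC (1.28, adjusted p = 0.00108, edgeR). Without hairpin #1 and without hairpin #2 the number was 2.

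The low H3 and H4 genes lay above Control with most hairpins. HIST1H3D was at 3.68, 3.13 and 3.16 CPM with the hairpins against 0.830 to 1.58 CPM in Control (1.5, SE 0.43, adjusted p = 0.0428, edgeR). HIST1H4H was at 2.26, 3.28 and 1.88 CPM against 1.14 to 1.44 CPM (0.99, SE 0.27, adjusted p = 0.0328, edgeR). The summed copies HIST2H4A and HIST2H4B were at 5.48, 3.18 and 2.42 CPM against 1.09 to 1.40 CPM and did pass (1.63, SE 0.31, adjusted p = 0.00923, edgeR). In all of these every hairpin library lay above every Control library. HIST1H3E, an H3 gene in which no stem-loop was found, was at 1.47, 1.35 and 0.593 CPM against 0.483 to 0.745 CPM (0.96, SE 0.39, adjusted p = 0.12, edgeR), and its groups overlapped.

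Soft and sh_PIP4K2B, both compared with the same Control libraries above, were also set against each other directly. In 16 of the 21 tested clustered genes all Soft libraries lay below all hairpin libraries, against 26.7% of all tested genes. Past the threshold 12 were lower in Soft, against 15.5% of all tested genes, and 0 were higher, against 14.5%, with DESeq2 also calling 12 and 0 and an unadjusted p below 0.05 giving 14 and 0. Called genes came from every type: HIST1H1C, HIST1H2AC, 7 of the 8 tested H2B genes, HIST1H3D and HIST2H3A, and HIST1H4H. HIST1H2BK had a log2 difference of -2.69 (SE 0.19, adjusted p = 1.80e-05, edgeR) and HIST1H2BJ of -3.99 (SE 0.43, adjusted p = 1.38e-04, edgeR). Linker histone gene HIST1H1C differed by -2.17 (SE 0.32, adjusted p = 5.68e-04, edgeR). The summed clustered level was 4.70 times as high in sh_PIP4K2B as in Soft. By type this ratio was 4.49 for H1, 3.18 for H2A, 5.43 for H2B, 4.52 for H3 and 3.69 for H4.

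**Figure D2:**
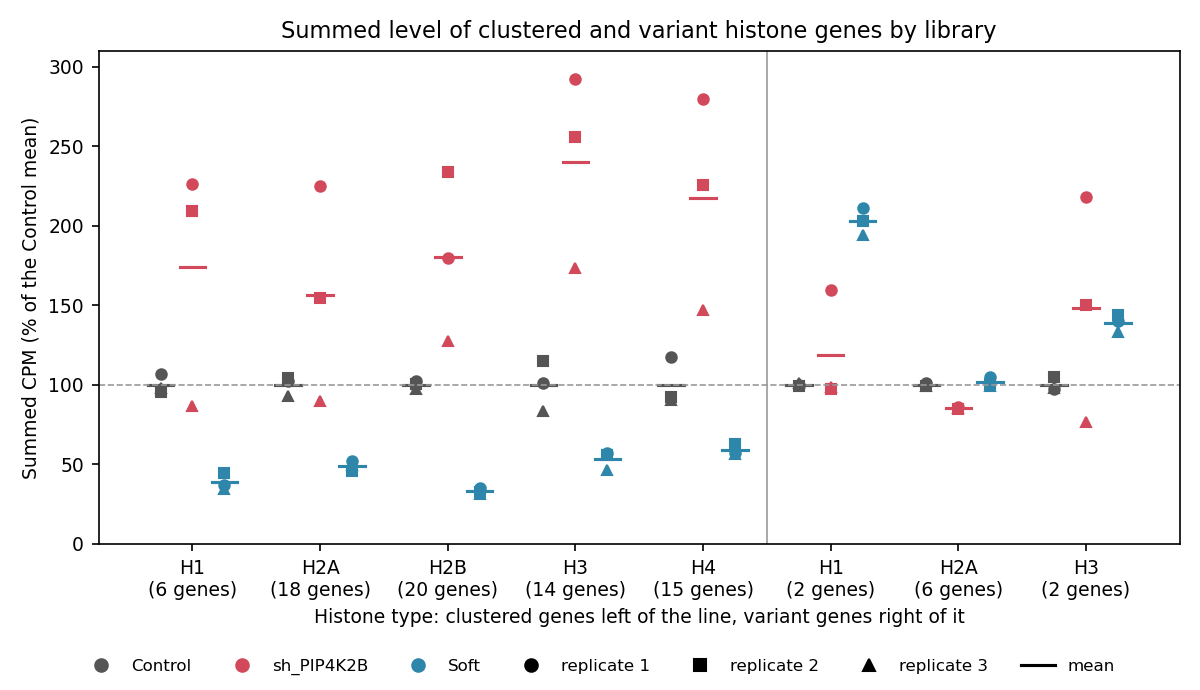
Summed CPM of the clustered (left) and variant (right) histone genes of each type in each library, as a percentage of the Control mean, with a bar for the mean of 3 libraries and the number of genes under each type. All clustered types are below 100% in Soft and above it on average in sh_PIP4K2B, where hairpin #3 is the lowest of the 3 hairpins in every clustered type, whereas variant H1 and H3 sums are above 100% in Soft.

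Promoters are shown for HIST1H2BK, the most abundant clustered gene, for HIST1H2BJ, the clustered gene called with hairpins, and for H1FX, a variant called on soft gels, because both H2B promoters hold the CCAAT box and the octamer known for H2B genes and that of H1FX does not. No variant in the set is of type H2B, so H1FX was taken after its values were seen. Each run is RefSeq sequence (GRCh38.p14) from 250 bases before to 50 after the start, 5′ to 3′ on the gene's strand, and capitals mark the TATA motif TATAAA, the CCAAT box and the octamer (ATTTGCAT), each searched on both strands, where the TATA motif can overlap its own reverse complement. They lie at chr6:27146809-27147108 (HIST1H2BK, minus strand), chr6:27132746-27133045 (HIST1H2BJ, minus) and chr3:129316237-129316536 (H1FX, minus).
HIST1H2BK: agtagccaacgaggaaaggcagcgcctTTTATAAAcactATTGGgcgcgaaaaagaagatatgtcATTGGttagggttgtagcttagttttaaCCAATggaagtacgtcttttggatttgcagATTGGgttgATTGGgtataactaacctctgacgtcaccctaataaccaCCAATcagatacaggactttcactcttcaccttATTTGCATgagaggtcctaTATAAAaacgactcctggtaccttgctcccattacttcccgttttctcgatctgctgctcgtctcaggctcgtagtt
HIST1H2BJ: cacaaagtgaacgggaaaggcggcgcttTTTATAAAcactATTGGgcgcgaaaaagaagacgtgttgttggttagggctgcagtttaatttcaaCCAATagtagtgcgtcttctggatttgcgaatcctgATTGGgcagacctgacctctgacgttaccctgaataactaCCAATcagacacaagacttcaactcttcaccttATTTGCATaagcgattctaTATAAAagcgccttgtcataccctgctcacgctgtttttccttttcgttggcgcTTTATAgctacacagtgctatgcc
H1FX: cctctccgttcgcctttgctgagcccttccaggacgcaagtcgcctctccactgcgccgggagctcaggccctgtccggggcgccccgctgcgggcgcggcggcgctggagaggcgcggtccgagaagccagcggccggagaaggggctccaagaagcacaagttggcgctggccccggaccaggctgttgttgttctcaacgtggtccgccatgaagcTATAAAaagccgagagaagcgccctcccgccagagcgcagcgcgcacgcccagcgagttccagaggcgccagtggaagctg
The TATA motif is a core promoter element, and the octamer is bound by Oct-1 and known for H2B promoters. A promoter was found for 65 of the 73 clustered genes and 9 of the 10 variants. Member shares below are per gene, counted if any promoter of the gene held the motif. The shares of all promoters are per single promoter, so the measures are not quite alike. TATAAA was in 67.7% of the clustered and 44.4% of the variant promoters, against 11.5% of all 35116 promoters in the table. CCAAT was in 84.6% and 77.8%, against 34.6%, and by type in every H1, H2A, H2B and H3 clustered promoter found but in 23.1% of those of H4. The octamer was in 77.8% of the H2B and 68.8% of the H2A clustered promoters, in 8.33% of those of H3 and in none of H1 or H4, against 1.77% of all promoters. Motif matches are descriptions of these windows. HIST1H1C and HIST1H4H are of types whose clustered promoters held no octamer. A link between these motifs and the changes in level was not tested.

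The 10 variant genes were all tested. On soft gels the level was higher than in Control for 8 of the 10 and lower for 2, and the median log2 fold change was 0.51. Past the threshold 3 were higher and 0 lower, beside the 15.8% and 14.8% of all tested genes given above. At an unadjusted p below 0.05 there were 5 higher and 2 lower, and with DESeq2 3 higher and 1 lower. The count of 3 became 2 without Control 1, Control 2 or Soft 1, 1 without Control 3, and 4 without hairpin #2 or #3. In 7 of the 10 all Soft libraries lay above all Control libraries, against 40.4% of all tested genes, and in 2 all lay below, against 39.1%. With hairpins 4 were higher and 6 lower, with a median of -0.06, and 1 was called lower and 0 higher, against 2.77% and 2.76% of all tested genes. DESeq2 called 2 lower and 0 higher there, and an unadjusted p below 0.05 gave 2 and 0. All hairpin libraries lay below all Control libraries in 2 of the 10, against 16.7% of all tested genes, and above them in 0, against 17.4%.

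The H1 variant H1FX was at 70.5, 69.7 and 71.7 CPM in Control, at 114, 70.3 and 64.1 CPM with hairpins #1, #2 and #3, and at 150, 144 and 136 CPM in Soft. It rose in Soft (log2 fold change 1.02, SE 0.19, adjusted p = 0.00223, edgeR), 2.03-fold, and all Soft libraries lay above the rest. H1F0, the gene of H1.0, a linker histone known to accumulate in differentiating cells, was at 5.22, 5.31 and 4.94 CPM in Control and 9.99, 10.2 and 10.6 CPM in Soft. That difference did not pass in the joint fit (0.99, SE 0.32, adjusted p = 0.0279, edgeR), where H1F0 varied from 3.47 to 10.6 CPM between hairpins. In the fit of the Soft and Control libraries alone its adjusted p was 1.32e-07 (edgeR).

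Of the H2A variants H2AFY2, the gene of macroH2A2, rose most. It was at 17.7, 18.4 and 17.7 CPM in Control, at 16.0, 17.6 and 20.2 CPM with hairpins and at 39.8, 37.7 and 40.5 CPM in Soft (1.13, SE 0.11, adjusted p = 7.38e-05, edgeR, for Soft against Control). This call held in each of the 19 fits. H2AFV, a second H2A.Z gene, was at 86.6, 90.3 and 86.0 CPM in Control, 83.4, 72.5 and 86.3 CPM with hairpins and 131, 126 and 131 CPM in Soft (0.56, SE 0.10, adjusted p = 0.00141, edgeR). In both genes the Soft libraries stood apart while hairpin and Control libraries overlapped. H2AFZ, whose protein differs little from that of H2AFV, did not share this: it was at 210, 206 and 216 CPM in Control and 187, 183 and 171 CPM in Soft (-0.23, SE 0.10, adjusted p = 0.082, edgeR). With hairpins H2AFZ was at 174, 151 and 163 CPM (-0.38, SE 0.10, adjusted p = 0.0289, edgeR).

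H2AFX, the variant with the stem-loop, was the member called lower with hairpins. It was at 158, 148 and 144 CPM in Control, at 110, 87.8 and 95.8 CPM with hairpins and at 124, 112 and 111 CPM in Soft. Neither the hairpin nor the Soft libraries overlapped with Control. The fold change passed with hairpins (-0.62, SE 0.11, adjusted p = 0.0072, edgeR) and not in Soft (-0.38, SE 0.11, adjusted p = 0.0202, edgeR), and Soft and sh_PIP4K2B did not differ past the threshold (0.24, SE 0.11, adjusted p = 0.104, edgeR). The contrast between these calls depended on the fit. With only the 2 groups compared the adjusted p was 0.0508 with hairpins and 5.69e-06 in Soft (edgeR), and DESeq2 called both (1.34e-05 and 0.00549). Without hairpin #1 or #2 the Soft difference also passed (adjusted p = 0.00241 and 0.0077, edgeR). The call with hairpins was lost when a Control or Soft library was left out (adjusted p from 0.0175 without Soft 1 to 0.0437 without Control 1, edgeR). H2AFJ was at 12.2, 13.8 and 12.9 CPM in Control, 9.02, 9.59 and 12.8 CPM with hairpins and 19, 17.2 and 15.0 CPM in Soft, and only Soft against sh_PIP4K2B passed (0.71, SE 0.16, adjusted p = 0.00593, edgeR). H2AFY, the gene of macroH2A1, stayed between 157 and 202 CPM in all 9 libraries and passed no comparison.

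Both H3.3 genes encode the same protein. H3F3B was at 263, 266 and 269 CPM in Control and 371, 371 and 357 CPM in Soft, and at 597, 408 and 207 CPM with hairpins #1, #2 and #3. Hairpins thus lay on both sides of Control while all Soft libraries lay above it, and neither comparison passed in the joint fit (0.46, SE 0.30, adjusted p = 0.228 for Soft and 0.60, SE 0.30, adjusted p = 0.19 for sh_PIP4K2B, edgeR). With the Soft and Control libraries fitted alone the adjusted p was 1.27e-08 (edgeR), and without hairpin #3 the comparison with hairpins passed (0.92, adjusted p = 0.00372, edgeR). Of the H3F3A transcript 67.7% of the 75-mers occur in other genes, and its own counts varied from 3.10 to 24.7 CPM within Control. Summed with the processed copy H3F3AP4 it was at 163, 161 and 174 CPM in Control, 199, 197 and 220 CPM with hairpins and 346, 326 and 311 CPM in Soft. The sum rose in Soft (0.98, SE 0.10, adjusted p = 8.70e-05, edgeR) and did not pass with hairpins (0.31, SE 0.10, adjusted p = 0.0623, edgeR).

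**Figure D3:**
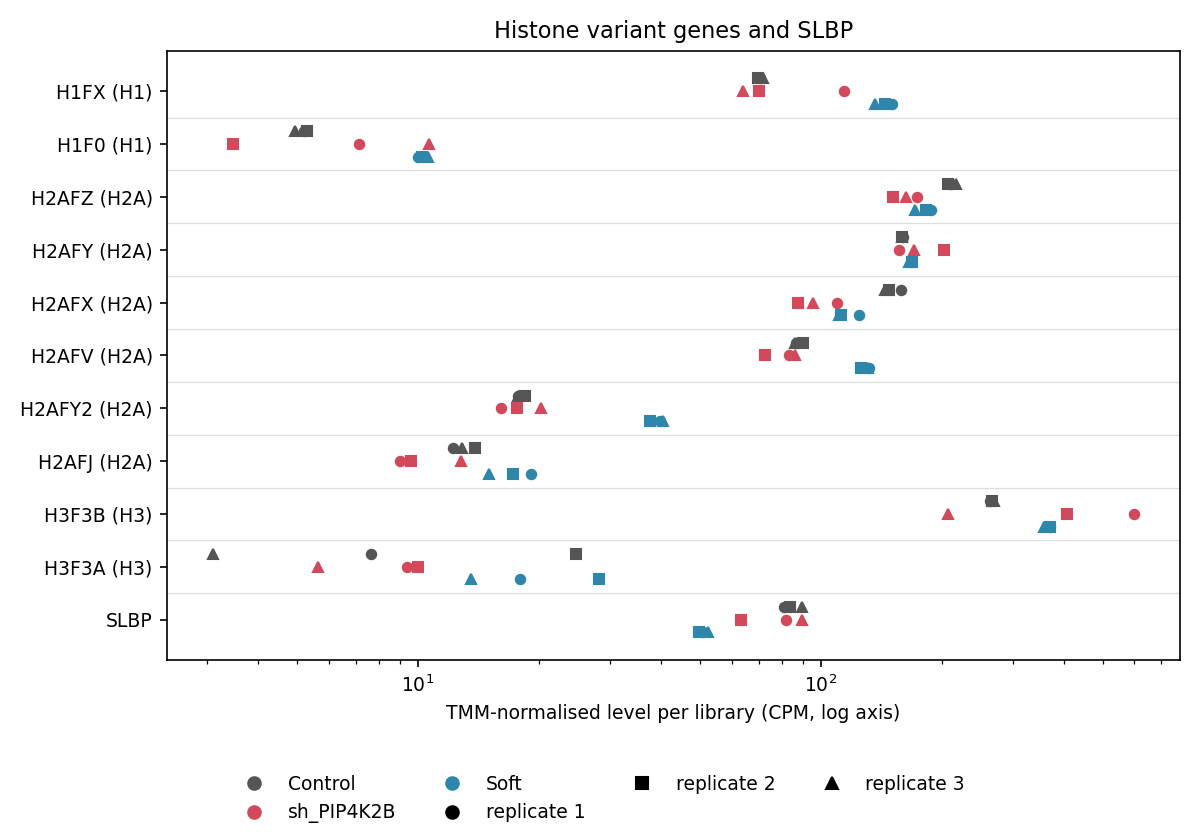
TMM-normalised level in CPM (log axis) of the 10 histone variant genes and SLBP in each library, with colours for the conditions and shapes for the replicates. H1FX, H2AFV and H2AFY2 are right of Control in Soft and SLBP is left of it, while hairpin libraries of H3F3B spread from 207 to 597 CPM around Control.

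Soft against sh_PIP4K2B, 4 variants were higher in Soft and 0 lower, where 14.5% and 15.5% of all tested genes were. An unadjusted p below 0.05 and DESeq2 gave the same counts of 4 and 0. They were H2AFY2 (1.13, SE 0.11, adjusted p = 8.95e-05, edgeR), H1FX (0.79, SE 0.19, adjusted p = 0.00827, edgeR), H2AFJ, given above, and H2AFV (0.68, SE 0.10, adjusted p = 5.38e-04, edgeR). Without hairpin #2, and likewise when a Control or Soft library was left out, the count was 2, with neither H1FX nor H2AFJ past the threshold. Without hairpin #1 H2AFJ lost its call and without hairpin #3 H1FX did.

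For the types with members in both classes the ratio of clustered to variant RNA was taken within each library, as log2 of the summed CPM, and is given with no test. For H1 it was -1.66 ± 0.08 in Control, -1.19 ± 0.65 in sh_PIP4K2B and -4.06 ± 0.18 in Soft (SD, n = 3). In other words, clustered genes gave 23.3% to 25.2% of the H1 reads in Control, 30.9%, 40.4% and 21.7% with hairpins #1, #2 and #3, and 5.29% to 6.48% in Soft. HIST1H1C, which gave 98.5% of clustered H1 reads, fell in Soft and H1FX, which gave 93.0% of variant H1 reads, rose. For H2A the ratio was -4.37 ± 0.09 in Control, -3.60 ± 0.67 in sh_PIP4K2B and -5.42 ± 0.08 in Soft (SD, n = 3). For H3 it was -6.69 ± 0.19, -5.89 ± 0.38 and -8.07 ± 0.13 (SD, n = 3). In all 3 types every Soft library lay below every Control library. With hairpin #3 the H1 ratio was -1.85, below all Control libraries, the H2A ratio was -4.31, within their range, and the H3 ratio was -5.50, the highest of the 3 hairpins. Both H3 sums were lowest with hairpin #3. The clustered sum was 7.92, 6.94 and 4.70 CPM with hairpins #1, #2 and #3, and the variant sum 606.8, 418.1 and 212.5 CPM.

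**Figure D4:**
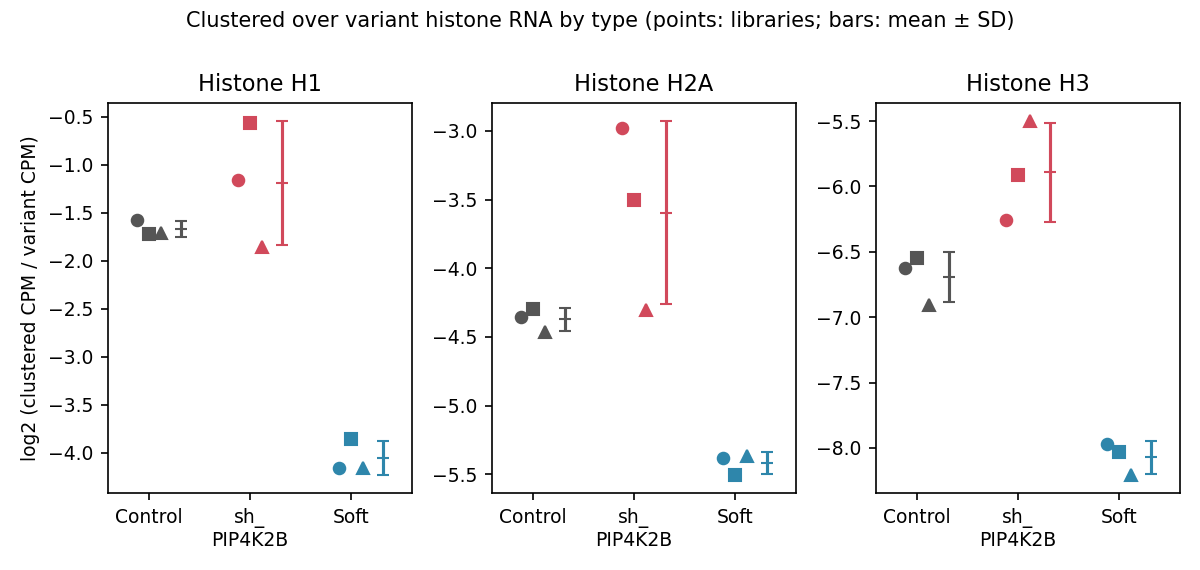
Log2 of the summed CPM of clustered over variant genes of types H1, H2A and H3, with a point for each library and bars for the mean ± SD of each condition (n = 3), each panel on its own axis. Soft libraries lie below Control in all panels, by 2.39 for H1, 1.05 for H2A and 1.38 for H3 on average, and the 3 hairpins spread more widely than either other condition.

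SLBP was at 81.0, 83.7 and 89.8 CPM in Control, at 81.9, 63.4 and 89.6 CPM with hairpins and at 51.0, 50 and 52.6 CPM in Soft. It fell in Soft (log2 fold change -0.73, SE 0.13, adjusted p = 0.00169, edgeR), with no overlap, and not past the threshold with hairpins (-0.12, SE 0.13, adjusted p = 0.571, edgeR). The call in Soft held in 15 of 19 fits and was missed without Control 3, Soft 1 or Soft 2 and with scaling by library size only, where the adjusted p for SLBP was highest (0.0128, edgeR). Of 34 tested genes of histone RNA processing and transcription, a hand-written list that includes SLBP, 12 were lower and 1 higher in Soft, with a median log2 fold change of -0.39, against 14.8% and 15.8% of all tested genes. With hairpins 4 were lower and 1 higher, with a median of 0.05, against 2.77% and 2.76%. CCNE2, a cyclin E gene whose kinase activates histone transcription through NPAT, was at 21.6, 27.7 and 28.6 CPM in Control, 13.4, 13.6 and 13.3 CPM with hairpins and 5.52, 4.57 and 5.10 CPM in Soft (-0.95, SE 0.14, adjusted p = 0.00272 and -2.36, SE 0.15, adjusted p = 8.76e-06, edgeR). CCNE1, the other cyclin E gene, fell by 0.93 with hairpins and by 1.78 in Soft on the log2 scale (adjusted p = 0.00313 and 2.60e-05, edgeR). CDK2, the partner of cyclin E, fell by 0.97 and 1.16 (adjusted p = 0.00177 and 1.25e-04, edgeR), and CDC25A, the phosphatase that activates it, fell by 1.60 in Soft (adjusted p = 9.37e-05, edgeR). PAPD5, a poly(A) polymerase linked to histone mRNA decay, was lower in Soft than in sh_PIP4K2B (-1.42, SE 0.22, adjusted p = 8.23e-04, edgeR).

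Histone chaperones carry histones to and from DNA. Of 35 tested chaperone genes, also listed by hand, 8 were lower and 1 higher with hairpins (median -0.18), against 2.77% and 2.76% of all tested genes. In Soft 11 were lower and 3 higher (median -0.15), against 14.8% and 15.8%. With hairpins the largest changes past the threshold were in UBN2, a subunit of the H3.3 chaperone HIRA (1.45, SE 0.18, adjusted p = 0.00147, edgeR), HJURP, the chaperone of the centromeric H3 variant (-1.16, SE 0.11, adjusted p = 6.81e-04, edgeR), and CHAF1B, a subunit of the replication chaperone CAF-1 (-1.08, SE 0.10, adjusted p = 5.84e-04, edgeR). In Soft those past the threshold were led by APLF, a chaperone acting in DNA repair (1.81, SE 0.31, adjusted p = 0.00122, edgeR), MMS22L, which binds new H3 and H4 at forks with TONSL (-1.30, SE 0.14, adjusted p = 9.71e-05, edgeR), and HAT1, which acetylates new H4 (-1.01, SE 0.16, adjusted p = 9.29e-04, edgeR). Among chaperone genes past the threshold, HAT1, CABIN1 and HJURP differed most between Soft and sh_PIP4K2B (-0.89, 0.70 and 0.69, adjusted p = 0.00189, 9.46e-04 and 0.00107, edgeR). CABIN1 is a further subunit of the HIRA complex.

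Other measures were set beside the clustered genes, and not all of them moved the same way. Of 47 RNAs that carry no poly(A) tail, such as small nuclear RNAs, 4 had enough counts to be tested and 16 were at 0 in all libraries. Their summed level was 31.4 to 42.5 CPM in Control, 53.0 to 91.4 CPM with hairpins and 13.1 to 23.6 CPM in Soft, the same order as that of the clustered genes. RN7SK, the 7SK RNA, was at 5.08, 5.57 and 3.67 CPM in Control, 18.7, 18.6 and 49.5 CPM with hairpins and 1.23, 0.762 and 0.805 CPM in Soft (2.6, SE 0.40, adjusted p = 0.00344 with hairpins and -2.35, SE 0.46, adjusted p = 0.00284 in Soft, edgeR). Its highest hairpin was #3, the lowest for the clustered genes. Of the 4 tested it was the only RNA called higher with hairpins (2.76% of all tested genes) or lower in Soft (14.8%). The part of RNA without a tail in the clustered values was not tested. In this bulk RNA, fewer cells in S phase and less histone RNA per cell cannot be told apart. Of 42 tested S phase genes, 29 were lower and 0 higher with hairpins and 33 were lower and 0 higher in Soft, where 2.77% and 14.8% of all tested genes were lower and 2.76% and 15.8% higher. Their sums were 2775 to 2849 CPM in Control, 1651 to 1853 CPM with hairpins and 1533 to 1613 CPM in Soft, so that S phase genes were lower under hairpins where clustered histone genes were higher. For 54 G2/M genes the counts, beside the same shares, were 33 and 18 lower and 0 higher, with sums of 5744 to 5882, 3471 to 3947 and 4444 to 4652 CPM. Their part was not tested either. The 6 clustered genes known for polyadenylated mRNA, HIST1H1C, HIST1H2AC, HIST1H2BC, HIST1H2BD, HIST1H2BK and HIST2H2BE, summed to 137 to 143 CPM in Control, 163 to 321 CPM with hairpins and 46.0 to 49.5 CPM in Soft. These 6 are part of the clustered sum given above. Of them 3 were lower in Soft against Control and 6 against sh_PIP4K2B, where 14.8% and 15.5% of all tested genes were lower.

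Of 8 pigment epithelium markers 3 were tested (MITF, OTX2 and BEST1), while RPE65 and TYR were at or near 0, and the sum was 45.7 to 51.6 CPM in Control, 41.0 to 58.2 CPM with hairpins and 62.4 to 67.5 CPM in Soft. Keratins KRT8 and KRT18 carried the 4 epithelial markers (sums of 1921 to 2073, 708 to 1122 and 891 to 943 CPM), with EPCAM and CDH1 at or near 0. Mesenchymal markers, mostly VIM, summed to 9242 to 9345, 4389 to 8524 and 6585 to 6891 CPM. The endothelial pair summed to 0.0439 to 0.219, 0.0963 to 0.346 and 4.34 to 5.33 CPM, all from PECAM1 in Soft, and the leukocyte marker PTPRC was at most 0.524 CPM. The median SD of log2 CPM between libraries was 0.36 in sh_PIP4K2B, where each library is another hairpin, 0.08 in Control and 0.07 in Soft. A single estimate of the spread served all 3 groups. No label says that replicates came from separate cultures, so p-values measure the spread between these libraries.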

How the data were processed

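RNA of 9 hTERT_RPE1 libraries, 3 per condition, was sequenced by the authors with a stranded poly(A) kit in paired 75 nt reads and aligned to GRCh38/hg38. The submitters' processing notes name STAR and Salmon. The annotation and the strand setting of the counting are not given in the sources used here. As deposited by the authors, the table holds an estimated count per gene and library, neither normalised nor pooled. Of its values 12.3% had decimals, and each was rounded. Sums per library ran from 19217346 to 24020799, and intervals and floors cover counting error only.

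Of 26475 genes, 13784 passed filterByExpr. They were tested over the 9 libraries together by the quasi-likelihood F test of edgeR 4.0.16 (R 4.3.3) after TMM normalisation, adjusted after Benjamini-Hochberg and called below 0.01. The SE of a log2 fold change is its size over the root of F. Symbols were matched through RefSeq, and transcripts, stem-loops and shared 75-mers came from GENCODE v44 and RefSeq on GRCh38. Scripts were tested on simulated data. The members and all gene lists were chosen with earlier results of these data known. Named genes were the variants and SLBP, the 3 clustered genes of each type with the highest mean CPM, the 3 highest and 3 lowest called clustered genes per comparison whose mean count reached 50 in a group, and the 3 called genes of the processing and chaperone lists with the largest change. Genes outside this rule (HIST2H2BC, HIST2H2BF, HIST1H2BN, HIST3H2A, HIST1H1B, HIST1H3H, RN7SK and the copies that were summed) were chosen after their values were seen. Alternatives were no filter, a minimum of 10 counts in each library, size factors of DESeq2, library size or upper quartile for scaling, the tool DESeq2 1.42.0, fits of 2 groups, a replicate block, each library left out, a threshold of 0.05 and, added after seeing the data, the summing of near-identical copies (with HIST2H3D, which is less alike, added to HIST2H3A and HIST2H3C). No protein sequences were used here.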

Additional observations from a re-analysis of the deposited data

Results flagged for a closer look

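In 13 named genes the sign of the fitted change against Control was opposite in Soft and sh_PIP4K2B, and their direct comparison passed the threshold. The pass is part of how these genes were picked and is no further result. Signs were also opposite in H3F3A, HIST2H2AA3, HIST2H2AA4, HIST2H4A and HIST2H4B, where the direct comparison did not pass. Only HIST1H2BJ among the 13 was called with hairpins against Control, so the other signs with hairpins are not resolved. In HIST1H1C, HIST1H2AC, HIST2H2BE and HIST1H2BC hairpin #3 lay below all Control libraries, as the Soft libraries did. Higher in Soft were H2AFV by 0.68, H2AFY2 by 1.13 and H2AFJ by 0.71 on the log2 scale (adjusted p = 5.38e-04, 8.95e-05 and 0.00593, edgeR). Among these H2AFY2 differed from Control by almost nothing with hairpins, with a log2 fold change that rounds to 0.00, and its sign there turned with the scaling.

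Lower in Soft were 10 clustered genes. The linker histone gene HIST1H1C differed by -2.17 and HIST1H2AC by -2.22 (adjusted p = 5.68e-04 and 6.75e-04, edgeR). Of the H2B genes, HIST1H2BK differed by -2.69, HIST2H2BE by -1.35, HIST1H2BD by -2.59, HIST1H2BJ by -3.99 and HIST1H2BC by -2.30 (adjusted p = 1.80e-05, 0.00869, 7.84e-04, 1.38e-04 and 7.76e-04, edgeR). HIST1H3D differed by -4.39 and HIST1H4H by -2.41 (adjusted p = 3.05e-04 and 2.48e-04, edgeR). For HIST2H3A the fitted value of -5.80 (adjusted p = 0.00376, edgeR) rests on 74 counts with hairpins and 1 count in Soft, a ratio of 77.1 with an exact 95% interval from 13.4 to 3080 that covers counting error only. HIST2H3C shares 99.1% of its 75-mers with other genes, mostly HIST2H3A, and HIST2H3D shares 62.8%, mostly with H3P4. The sum of the 3 differed by -3.81 (SE 0.64, adjusted p = 0.00124, edgeR).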

How the results depend on the processing

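The counts of called members depend on few libraries and on which groups enter the fit. Clustered genes higher with hairpins (1) numbered 0 with at least 10 counts per library or with only the 2 groups fitted, 2 with library size only or with copies summed, 4 with DESeq2, 6 at an adjusted p below 0.05, and 0 to 7 with 1 library left out, 7 being without hairpin #3. Variants lower with hairpins (1) numbered 0 with library size only, 0 with 2 groups, 2 with DESeq2, 2 at 0.05 and 0 to 2 with 1 library left out, and variants higher (0) numbered 0 to 1, the 1 being H3F3B without hairpin #3. Clustered genes lower in Soft (6) numbered 3 with at least 10 counts, 10 with 2 groups and 2 to 10 with 1 library left out. Variants lower in Soft (0) numbered 1 with DESeq2, 2 with 2 groups, 1 at 0.05 and 0 to 1 with 1 library left out, and variants higher (3) numbered 6 with 2 groups and 1 to 4 with 1 library left out. Against sh_PIP4K2B, clustered genes lower in Soft (12) numbered 6 with at least 10 counts, and variants higher (4) numbered 2 with 2 groups and 2 to 3 with 1 library left out. The Soft minus Control class ratio of H2A (-1.05) was -0.765 and that of H3 (-1.38) was -1.19 without the copies (HIST2H3D among them), and H3 was -1.59 with H3F3AP4 added. The cause of these shifts was not tested, beyond the smaller set of genes or libraries that a setting itself leaves.

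No called value of a named gene changed sign. Of values that were not called, the log2 fold change of H2AFY2 with hairpins turned to 0.002 with at least 10 counts and 0.089 with library size only. With 1 library left out it ran from -0.097 to 0.07, that of H1FX from -0.074 to 0.381, of H3F3A from -0.956 to 0.638 of SLBP from -0.225 to 0.014, of HIST2H2AA4 from -0.054 to 0.874 and of HIST1H2BC from -0.011 to 0.643. Against sh_PIP4K2B, H2AFY in Soft ran from -0.164 to 0.034 and H3F3B from -0.468 to 0.243.

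The correlation of deviations between same-numbered libraries ran from -0.115 to 0.039. With 3 libraries per group, and another hairpin in each sh_PIP4K2B library, this cannot decide whether same-numbered libraries were paired. With the replicate number as a block the variants lower with hairpins numbered 0 in place of 1, because H2AFX then had a log2 fold change of -0.622 and an adjusted p of 0.0142 (edgeR). Under the block 3 further calls against sh_PIP4K2B were lost (H2AFJ, HIST1H2BN and HIST2H2BE) and 1 was gained (HIST2H2BC).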
